A study of Danio rerio with 12 samples.

Results

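The long arm of zebrafish chromosome 4 was taken as every gene of the count table that lies on chromosome 4 with its lowest start above 27000000 bp (GRCz11), which gave 1653 of the 32057 genes of the table. A further 727 genes lie on the rest of chromosome 4. The long arm is known as a gene-duplicated, heterochromatic stretch of the zebrafish genome. It carries large families of near-identical zinc finger and immune receptor genes, arrays of small nuclear RNA (snRNA) and 5S ribosomal RNA (rRNA) genes, and the cluster of mir430, the microRNA that clears maternal transcripts in the early embryo. Heterochromatin is packed chromatin in which most genes give little RNA. Zinc finger genes of this kind encode DNA-binding proteins, and such families commonly grow by tandem duplication.

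The samples were whole brains of 4 Het (psen2 S4Ter/+), 4 Hom (psen2 S4Ter/S4Ter) and 4 WT (psen2 +/+) female zebrafish of the Tübingen strain, aged 6 months, with 1 RNA-seq library per fish. S4Ter is a small deletion that leaves a stop codon near the start of psen2, one of the genes for presenilin, the catalytic subunit of gamma-secretase. The paper found no sign of decay of the mutant transcript and does not regard the allele as null. It proposes that translation from later start codons probably makes shortened Psen2 proteins. All 12 fish were siblings from 1 pair of Het parents and shared a tank, so that a Het or Hom fish differs from a WT sibling at other loci that segregated in the family as well as at psen2. The study asked what the mutant allele does to the brain transcriptome when present in 1 copy or in 2 copies.

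Libraries held 11878943 to 17026801 counts, and 3 counts, taken as the floor of a single gene in a single fish, equalled 0.176 to 0.253 CPM (the count scaled to the total of its library). Levels printed below for single long-arm genes are CPM on another scale, over the total of the tested genes without mitochondrial rRNA. They cannot be set directly against this floor. Counts of psen2 itself were 182 to 235 in Het fish, 190 to 216 in Hom fish and 222 to 245 in WT fish, but the table sums both alleles, so these values check no label. Neuronal markers such as ELAVL4 were abundant in every library. They summed to 3436 to 4261 CPM in mutant fish and 4556 to 4961 CPM in WT fish. Of 7, 0 were higher and 2 lower in mutant fish at FDR under 0.05 by edgeR's quasi-likelihood test, ELAVL4 among the lower. Radial glial markers summed to 1259 to 1920 CPM in mutant fish and 1035 to 1317 CPM in WT fish, and 4 of 6 were higher at FDR under 0.05 by edgeR's quasi-likelihood test. Oligodendrocyte markers summed to 6138 to 10930 CPM in mutant fish and 6094 to 9351 CPM in WT fish, with 3 of 7 higher and 1 lower. Over all genes tested 16.8% were higher and 17.4% lower at the same threshold. The sums are of CPM on library totals that include mitochondrial rRNA. Retina and pineal markers summed to 9.00 to 121.5 CPM in mutant fish and 2.10 to 82.9 CPM in WT fish, with 0 of 4 tested past that threshold. The part of these cell types in the results below was not tested. Summed levels reached 12.1 CPM in mutant fish and 12.8 CPM in WT fish for pituitary markers, and 84.7 CPM and 49.7 CPM for the blood markers. Mitochondrial rRNA took 31.3 to 35.5% of all counts in the 8 mutant fish and 17.9 to 26.4% in the 4 WT fish, without overlap, so this share and the genotype cannot be told apart. Het fish 84 stood apart on the long arm, as described below.

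Of the 1653 long-arm genes, 172 (10.4%) were detected, meaning a CPM above 1.5 in at least 4 of the 12 fish. On the rest of chromosome 4 the same rule kept 406 of 727 genes (55.8%), and among the other 24 chromosomes the share ran between 45.3% on chromosome 22 and 58.1% on chromosome 14. The long arm was thus far below every other chromosome in these brains. A laxer reading left the order as it was, since 922 long-arm genes (55.8%) had at least 1 count in any fish, against 622 (85.6%) on the rest of the chromosome. The 2 genes nearest the boundary, slc6a1l below it with 7 counts in all and ENSDARG00000114833 above it with 0 counts, were both undetected.

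Many of the undetected genes were short RNA genes. The long arm held 392 genes named for U1 or U6, the snRNAs of the spliceosome, namely 148 of the 162 U1 genes and 244 of the 269 U6 genes of the table. Only 15 of these U1 genes and 0 of these U6 genes had any count, and together they received 49 counts over the 12 fish. All 54 mir430 genes and the 27 genes for 5S rRNA were at 0. The whole table holds 1901 genes for 5S rRNA, of which 0 were detected. The same held for all 162 U1 and all 269 U6 genes of the table. For 5S rRNA, U1 and U6 genes, being undetected was thus not particular to the long arm. Their counts did differ, since the 39 U1 and U6 genes off the arm received 286 counts. Of mir430 the whole table holds 55 genes, so almost none lie off the arm for comparison. The mir430 genes of the arm are 73 to 82 bases long, and counting required the whole fragment to fall in exons. Their 0 counts therefore do not show that they were silent. What this rule took from the short RNA genes was not tested. With such small RNA genes set aside, 172 of 1176 long-arm genes (14.6%) were detected, against 405 of 686 (59.0%) on the rest of chromosome 4.

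The zinc finger family showed the contrast most plainly. Of 143 long-arm genes with a znf symbol, 17 (11.9%) were detected, although 139 had at least 1 count somewhere. Of the 171 znf genes on other chromosomes, 149 (87.1%) were detected. Genes known only by a clone name were detected in 93 of 715 cases on the long arm and in 1294 of 5455 cases on other chromosomes. Genes with another symbol, a class set by name alone that also held the ms4a17a family, were detected in 40 of 75 cases on the long arm (53.3%) and in 71.2% of 19057 cases on other chromosomes. The ms4a17a family, whose members encode membrane proteins that span the membrane 4 times, had 14 genes here, of which ms4a17a.10 and ms4a17a.11 were detected. Fragments with a mapping quality below 10 were not counted, so the counts of near-identical copies cover only the sequence that sets a copy apart. What this took from the duplicated families was not tested.

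Detected genes clustered at both ends of the arm. Between 27 and 30 Mb, 23 of 101 genes were detected (22.8%), or 53.5% of those that are not small RNAs. Between 30 and 70 Mb only 43 of 1251 were detected (3.44%), and no stretch of 5 Mb in that region exceeded 5.71%. From 70 Mb to the end of the chromosome the share was 106 of 301 (35.2%). The middle also held 390 of the 392 U1 and U6 genes. These limits of 30 and 70 Mb were set after the shares along the arm had been seen, so the 3 regions are described without a test.

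**Figure D1:**
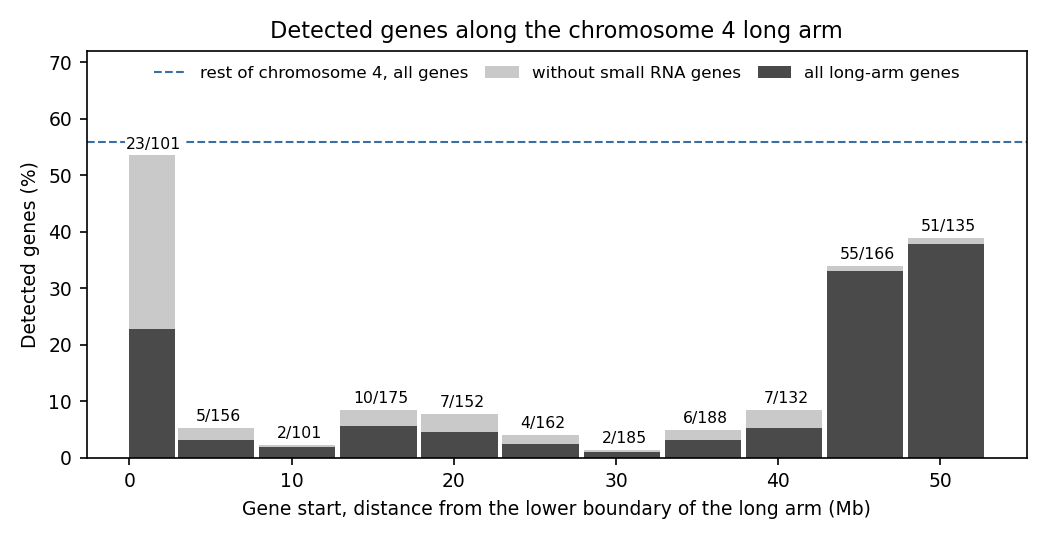
Share of detected genes (%) in each stretch of the long arm, by distance from its lower boundary (Mb). Dark bars count all genes, pale bars leave out small RNA genes, labels give detected over all genes, and the dashed line marks the rest of chromosome 4 at 55.8%; in the middle of the arm the dark bars reach at most 5.71% and the pale bars 8.55%, while the dark bars at the far end reach 37.8%.

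Levels were low even among detected genes. Their mean level over the 12 fish ran between 1.15 and 66.6 CPM with a median of 5.43 CPM, and 50 exceeded 10 CPM. Per kilobase of exon the median was 2.06 CPM, against 8.50 CPM for the detected genes of the rest of chromosome 4 and 7.04 CPM for all 16021 genes tested. The highest long-arm gene by this scale was RAB21 (chr4:74087575-74109792), a small GTPase of early endosomes, at 40.3 CPM per kilobase. CCT2, a subunit of the chaperonin that folds actin and tubulin, followed at 27.2, and KCNA1, a voltage-gated potassium channel of axons, at 26.5. The clone gene si:cabz01117780.1 had 22.6 CPM per kilobase, TAFA5, a secreted neuropeptide-like protein, 13.3, and GRAMD4 12.7. RAB21 was also among the steadiest, at 47.6, 50.3, 54.9 and 46.7 CPM in Het fish, 47.5, 51.0, 49.2 and 49.3 CPM in Hom fish, and 50.6, 56.5, 54.0 and 45.5 CPM in WT fish. The genotypes overlapped for this gene throughout. Other well-expressed members were RAB3IP, an exchange factor for Rab8, the receptor phosphatase genes PTPRR and ptprb, the nuclear pore gene NUP50 and the peroxisomal transporter gene abcd2; their mean levels lay between 35.1 and 47.4 CPM, and none passed FDR under 0.05 in any comparison. Roles are given as known for the mammalian genes.

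The long arm supplied a smaller share of all counts in mutant brains. That share was 0.128, 0.121, 0.0984 and 0.136% in Het fish, 0.136, 0.131, 0.126 and 0.132% in Hom fish, and 0.174, 0.174, 0.146 and 0.155% in WT fish. Every mutant fish was thus below every WT fish, with means of 0.121 ± 0.0162% in Het, 0.131 ± 0.00411% in Hom and 0.162 ± 0.0141% in WT (SD, n = 4 each). The mitochondrial rRNA share given above moved with this difference, and once mitochondrial counts were left out of the total the groups overlapped, at 0.157 to 0.226% in mutant fish and 0.213 to 0.234% in WT fish. Relative to the rest of chromosome 4, long-arm counts amounted to 8.15 to 10.2% in mutant fish and 9.69 to 10.15% in WT fish. Only Het fish 84 lay away from the others by this measure, at 8.15% where the other 11 fish had 9.62 to 10.2%. Its share of 0.0984% of all counts has a Wilson interval of 0.0969 to 0.100% at 95% confidence, which covers counting error only.

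**Figure D2:**
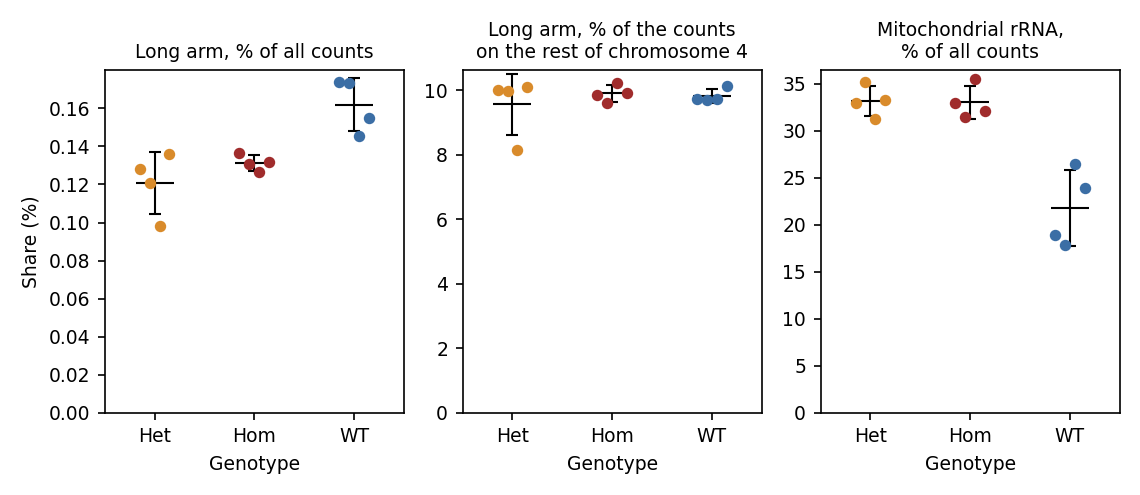
Share of counts (%) in each fish for the long arm, for the long arm relative to the rest of chromosome 4, and for mitochondrial rRNA, in Het, Hom and WT fish. Points are fish and bars the mean with SD (n = 4); the mutant fish lie below the WT fish in the left panel and above them in the right panel, while in the middle panel only Het fish 84 (8.15%) stands off.

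The number of long-arm genes above 1.5 CPM moved in the same way, being 146, 142, 116 and 155 in Het fish, 157, 156, 157 and 149 in Hom fish, and 185, 184, 165 and 170 in WT fish. Het fish 84 had the fewest. It also had the fewest long-arm genes with any count, 566, where the other 3 Het fish had 638 to 641. The threshold of 1.5 CPM refers to library totals that include mitochondrial rRNA, whose share was higher in every mutant fish. With mitochondrial counts left out of the totals, 230 long-arm genes met the detection rule instead of 172. What the mitochondrial share did to the number above 1.5 CPM in each fish was not tested. The rest of chromosome 4 likewise took 1.207 to 1.385% of all counts in mutant fish and 1.493 to 1.791% in WT fish.

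No long-arm gene was DE between mutant and WT brains by edgeR's quasi-likelihood test, where 2.53% of all 16021 genes tested were. DE meant a Bonferroni-adjusted p under 0.01, or an FDR under 0.01 with a log2 fold change (logFC) beyond 1 in size. Mutant against WT was the average of the 2 mutant genotypes minus WT. At an unadjusted p under 0.05 the test gave 38 long-arm genes (22.1%), against 44.9% of all genes. DESeq2 gave 0 DE on the long arm and 1132 DE over all genes, where edgeR's quasi-likelihood test gave 406. At FDR under 0.05, without a bound on the fold change, 27 of 172 (15.7%) passed, 7 higher and 20 lower in mutant fish, against 34.1% of all genes. Separately by direction, 16.8% of all genes were higher and 17.4% lower. On the long arm 4.07% were higher and 11.6% lower. Of the 172 genes, 125 were among the 5340 lowest-expressed of all genes tested, and of these 125 genes 4 were higher and 9 lower (10.4% in all), against 800 higher and 365 lower of the 5340 (21.8%). Without WT fish 86 the count of 27 became 11, and without WT fish 79 it became 15. Over all genes the count of 5467 became 3385 and 3530 in these fits. With a covariate for the mitochondrial rRNA share both counts were 0. The median standard error of the logFC was 0.22 over long-arm genes and 0.14 over all genes. For the 125 lowest-expressed long-arm genes it was 0.25, against 0.21 over the 5340. The part of this in the share of calls was not tested. In bulk tissue, fewer cells of a type and less RNA per cell cannot be told apart.

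The median logFC of the 172 genes was -0.14 (0.02 over all genes), and 108 of them (62.8%) were below 0, against 48.1% of all genes. The median was -0.09 without Het fish 84 and -0.04 without WT fish 79. On the rest of chromosome 4 the median was 0.00 and 203 of 406 were below 0. By region the medians were -0.04 at the proximal end, -0.30 in the middle and -0.13 at the distal end. The median standard errors of the logFC were 0.161, 0.469 and 0.198 in the same order. Of the 43 tested genes of the middle, 0 were higher and 2 lower at FDR under 0.05 by edgeR's quasi-likelihood test. In the middle 22 of 43 met the rule for low fish given further below, against 7 of 129 at the ends. Whether the regions differ in logFC was not tested. Over the 172 genes both comparisons with WT gave like medians, -0.15 for Het and -0.10 for Hom, but they share the 4 WT fish.

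In Het brains 2 long-arm genes were DE, both higher, where 3.17% of all genes were DE and 2.09% were DE and higher. The larger change was that of ms4a17a.11 (ENSDARG00000094809, chr4:76575585-76588333, plus strand). It measured 9.84, 7.97, 11.2 and 7.48 CPM in Het fish, 4.57, 5.06, 7.06 and 7.12 CPM in Hom fish, and 4.07, 3.88, 2.09 and 4.75 CPM in WT fish. The Het fish did not overlap with the WT fish, and the Hom fish overlapped with WT by 1 value, 4.57 CPM. The logFC was 1.30 ± 0.25 (SE) for Het against WT, 2.46-fold, at FDR 0.00334 by edgeR's quasi-likelihood test, and 0.69 for Hom against WT at FDR 0.0651. For the mean of Het and Hom against WT, ms4a17a.11 had a logFC of 0.994 at FDR 0.004945 by edgeR's quasi-likelihood test. It thus missed a DE call there only by the bound of 1 on the logFC. Het and Hom themselves were not shown to differ for this gene or any other of the long arm. Its neighbour ms4a17a.10 had a logFC of 0.39 at FDR 0.286 for the mean of Het and Hom against WT by edgeR's quasi-likelihood test.

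The other was PSMB10 (ENSDARG00000043781, chr4:77207693-77218637, minus strand), a subunit of the immunoproteasome, the form of the proteasome that trims peptides for antigen presentation. It measured 9.56, 9.08, 17.9 and 8.19 CPM in Het fish, 7.202, 7.92, 8.51 and 7.55 CPM in Hom fish, and 4.68, 3.41, 5.66 and 7.16 CPM in WT fish. All 8 mutant fish were above all 4 WT fish, the closest pair being Hom fish 78 at 7.202 CPM and WT fish 95 at 7.164 CPM. The logFC was 1.09 ± 0.26 (SE) for Het against WT, 2.13-fold, at FDR 0.00893 by edgeR's quasi-likelihood test. Het fish 84 was far above the rest, and without it the logFC was 0.78 at FDR 0.0179. The gene stayed DE in only 2 of the 12 fits with a fish left out, those without Het fish 89 or WT fish 95, and with the length correction its FDR was 0.0123. A further gene of antigen presentation, mhc2d4b, a class II major histocompatibility gene, had a logFC of 0.89 ± 0.31 (SE) at FDR 0.0394 for mutant against WT, with overlapping groups, at 2.96 to 6.33 CPM in mutant fish and 1.16 to 4.18 CPM in WT fish.

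At FDR under 0.05, 22 long-arm genes (12.8%) passed for Het against WT, where 30.0% of all genes did. For Hom against WT 0 were DE, where 1.11% of all genes were; 25 (14.5%) had an unadjusted p under 0.05 by edgeR's quasi-likelihood test, against 36.1% of all genes. DESeq2 also gave 0 DE on the long arm, with 526 DE over all genes, where edgeR's quasi-likelihood test gave 178. At FDR under 0.05, 9 (5.23%) passed for Hom, where 20.3% of all genes did. Between Hom and Het 0 long-arm genes passed FDR under 0.05, as did 0.00% of all genes, with 4 (2.33%) at an unadjusted p under 0.05 against 3.79% of all genes, 0 by DESeq2 and a lowest FDR of 0.989.

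**Figure D3:**
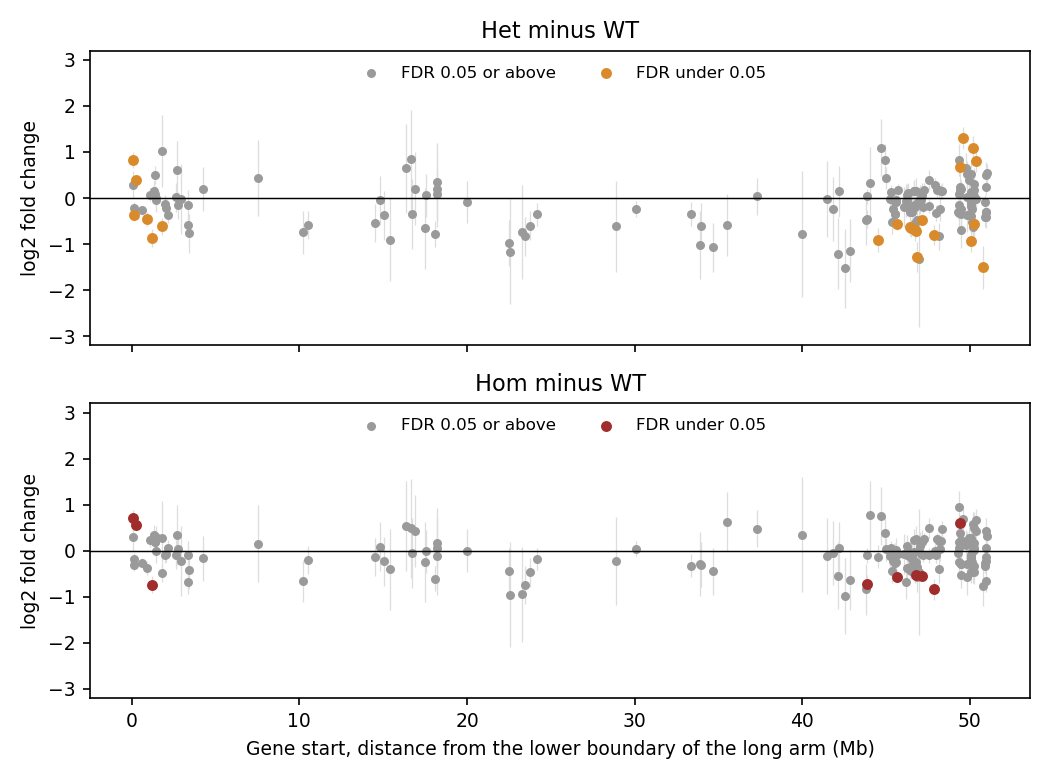
LogFC of the 172 tested long-arm genes by distance from the lower boundary of the arm (Mb), Het minus WT above and Hom minus WT below. Points are genes, bars the standard error, and colour marks FDR under 0.05 (22 genes for Het, 9 for Hom), none of which lies between 3 and 40 Mb from the boundary.

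The genes described next passed FDR under 0.05 for mutant against WT, and they were chosen for naming once these values were known. Of the 27, 9 stayed under 0.05 whichever fish was left out: CELSR1, CRELD2, ENSDARG00000090942, PHF21B, TAFA5, ms4a17a.11, si:dkey-262g12.9, trim24 and zgc:113209.

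Of the 27 genes, 20 were lower in mutant brains, and 4 of these, trim24, PHF21B, BRD1 and terfa, are described next, picked after their values were seen. For trim24 (ENSDARG00000103350, chr4:74141400-74205303), a chromatin reader and transcription cofactor of the TIF1 family, levels were 32.6, 35.2, 41.0 and 36.9 CPM in Het fish, 35.5, 35.1, 33.1 and 34.4 CPM in Hom fish, and 52.2, 61.4, 44.0 and 44.4 CPM in WT fish. Every mutant fish lay below every WT fish. The logFC was -0.51 ± 0.10 (SE, 0.702-fold) at FDR 0.00262 by edgeR's quasi-likelihood test. PHF21B, a PHD finger protein, had 6.95 to 12.1 CPM in mutant fish and 10.2 to 21.9 CPM in WT fish, with a logFC of -0.83 at FDR 0.00542. BRD1, a scaffold of histone acetyltransferase complexes, had 48.5 to 66.0 CPM in mutant fish and 68.1 to 98.4 CPM in WT fish, with a logFC of -0.35 at FDR 0.0281. It was the most abundant long-arm gene before scaling by length. The telomere-binding factor gene terfa had a logFC of -0.54 at FDR 0.0478 by edgeR's quasi-likelihood test. It stayed under 0.05 in only 2 of the 12 fits with a fish left out. It overlaps other genes on the same strand, where the counting leaves fragments unassigned. With the mitochondrial rRNA share as a covariate the logFC of trim24, PHF21B and terfa changed sign, to 0.035, 0.29 and 0.15.

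A list of 18 genes that act on heterochromatin or repress through zinc finger proteins includes trim24 and otherwise lies off the long arm. Of these, 15 were tested, with a median logFC of -0.20, and at FDR under 0.05 by edgeR's quasi-likelihood test 1 was higher and 7 were lower in mutant brains. Without trim24, 6 of 14 were lower. TRIM33, the partner of trim24, had a logFC of -0.76, the histone chaperone gene DAXX -0.80, the H3K9 methyltransferase genes setdb1a -0.43 and SETDB1 -0.40, the deacetylase gene HDAC1 -0.41 and the chromatin remodeller gene ATRX -0.23. The heterochromatin protein gene CBX3 was the one that rose, by 0.37. Over all genes 34.1% passed the same threshold, and 17.4% were lower. Among the 5340 highest-expressed genes tested, 860 were higher and 1509 lower (44.4% in all). The list was chosen with earlier results of these data known, and it was not tested as a set.

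CELSR1 (ENSDARG00000069185, chr4:28190013-28335184), a large cadherin of planar cell polarity, fell to 37.8, 29.4, 20.4 and 31.6 CPM in Het fish and 28.5, 27.6, 32.6 and 42.0 CPM in Hom fish, against 44.1, 60.4, 64.3 and 49.7 CPM in WT fish. The groups did not overlap, and Het fish 84 was the lowest. Its logFC was -0.81 ± 0.16 (SE, 0.572-fold) at FDR 0.00275 by edgeR's quasi-likelihood test. Near it, the ceramide kinase gene CERK (-0.41) and TBC1D22A (-0.27), which encodes a Rab GTPase-activating domain, were lower at FDR 0.0301 and 0.0308.

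The clone gene si:dkey-262g12.9 (ENSDARG00000094551, chr4:73796172-73807336) had the lowest FDR of the long arm, 0.00162. It measured 8.63, 9.64, 7.06 and 7.39 CPM in Het fish, 9.44, 10.5, 8.41 and 8.77 CPM in Hom fish, and 13.7, 13.96, 12.5 and 13.9 CPM in WT fish. The nearest mutant and WT values were thus 10.5 and 12.5 CPM, and the logFC was -0.63 ± 0.11 (SE, 0.646-fold) by edgeR's quasi-likelihood test. Its neighbour si:dkey-262g12.12 had a logFC of -0.93 with overlapping groups, 3.09 to 11.2 CPM in mutant fish and 5.35 to 14.7 CPM in WT fish. ENSDARG00000090942, to which no symbol was matched, had 7.94 to 11.0 CPM in mutant fish and 11.9 to 16.1 CPM in WT fish. The largest decrease among the 27 was that of si:dkey-238k10.3, at 1.65 to 7.54 CPM in mutant fish and 3.54 to 8.45 CPM in WT fish with a logFC of -1.14 at FDR 0.0338; Hom fish 82, at 7.54 CPM, was the only mutant fish above 2.14 CPM.

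CRELD2 (ENSDARG00000029071, chr4:27081972-27099285), a chaperone-like protein of the endoplasmic reticulum that is induced when proteins misfold there, was higher in mutant brains. It measured 6.22, 7.97, 6.28 and 5.70 CPM in Het fish, 5.94, 4.96, 7.35 and 5.82 CPM in Hom fish, and 3.36, 4.11, 4.18 and 3.11 CPM in WT fish. The groups did not overlap, and the logFC was 0.76 ± 0.16 (SE, 1.70-fold) at FDR 0.00378 by edgeR's quasi-likelihood test. TAFA5 (ENSDARG00000069160) measured 31.8, 35.7, 27.7 and 37.3 CPM in Het fish, 39.0, 38.0, 32.7 and 39.1 CPM in Hom fish, and 23.8, 22.7, 28.7 and 26.4 CPM in WT fish. Here Het fish 84, at 27.7 CPM, fell below WT fish 88, at 28.7 CPM. The logFC was 0.47 ± 0.10 (SE) at FDR 0.00503 by edgeR's quasi-likelihood test. The remaining increases were zgc:113209 (0.64) and the organic anion transporter gene slco1d1 (0.74), both with overlapping groups; with the same covariate slco1d1 had a logFC of -0.35. Over the 172 genes, 11 (6.40%) separated the 8 mutant from the 4 WT fish without overlap, against 16.4% of all genes tested.

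**Figure D4:**
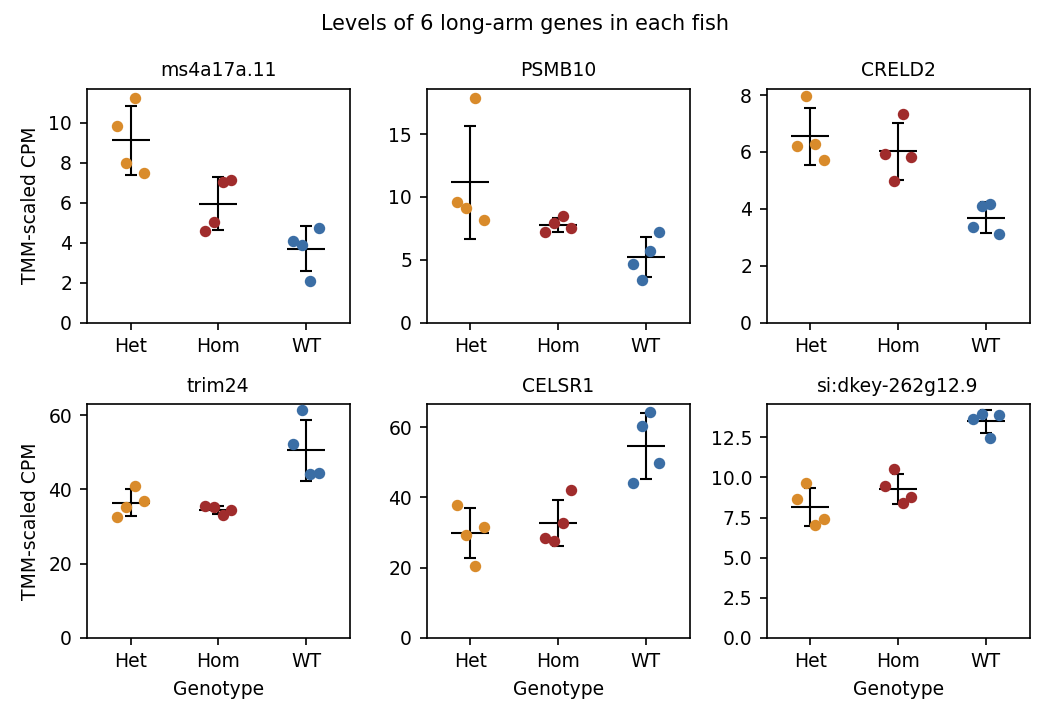
TMM-scaled CPM of 6 long-arm genes in each Het, Hom and WT fish (points), with the mean and SD (n = 4). In the upper row the mutant fish are higher (ms4a17a.11, PSMB10, CRELD2) and in the lower row they are lower (trim24, CELSR1, si:dkey-262g12.9); the single high point of PSMB10 is Het fish 84 at 17.9 CPM.

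Zinc finger genes tended to lie below 0 on the long arm, and did so on other chromosomes too. Of 17 tested long-arm znf genes, 15 had a logFC below 0 for the mean of Het and Hom against WT, with a median of -0.45. Only znf1059 (-0.55, FDR 0.0164) and znf1185 (-0.45, FDR 0.0499) passed FDR under 0.05 by edgeR's quasi-likelihood test. With a fish left out, znf1059 passed in 10 and znf1185 in 2 of the 12 fits. Off the long arm, 132 of 150 znf genes were below 0 with a median of -0.26, of which 58 passed as lower and 0 as higher. The smaller share of calls on the arm stood beside a median standard error of 0.35, against 0.13 for the znf genes off it. Of the 40 tested genes with another symbol, 24 had a logFC above 0, and 6 were higher and 7 lower at FDR under 0.05 (32.5%, against 34.1% of all genes). The difference between these families was not tested.

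Many long-arm genes varied strongly among siblings of 1 genotype. For some genes 1 or several fish had almost no counts while the others had plenty. The clearest case was si:dkey-29p23.1 (ENSDARG00000113896, chr4:43648421-43676582, minus strand). It had 252, 213, 116 and 238 counts in Het fish, 209, 0, 209 and 231 counts in Hom fish, and 211, 0, 1 and 256 counts in WT fish. The fish at or next to 0 were Hom fish 82 and WT fish 86 and 88, which belong to both genotypes. The means were 19.3 ± 4.58 CPM in Het fish, 15.15 ± 10.1 CPM in Hom fish and 10.9 ± 12.6 CPM in WT fish (SD, n = 4 each), and mutant against WT had a logFC of 0.66 ± 0.95 (SE) at FDR 0.620 by edgeR's quasi-likelihood test.

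A count was made of tested genes whose lowest fish had at most 10% of the highest fish, where the highest reached 2 CPM. There were 29 such genes on the long arm (16.9%), against 2.75% of all genes tested and 4 of 406 on the rest of chromosome 4 (0.985%). The other 24 chromosomes had between 1.04% on chromosome 10 and 6.29% on chromosome 22. Such genes were more common at low levels. Among the 5340 lowest-expressed genes tested, 29 of the 125 long-arm genes met the rule (23.2%), against 7.06% of all. The pooled SD of log2 CPM within genotypes had a median of 0.41 and 0.33 in these 2 sets. The measure and its limit of 10% were chosen after the values had been seen, so no test is given. With limits of 5% and 20% the long arm had 23 and 44 such genes (1.90% and 6.21% of all genes), and leaving out any fish gave 26 to 29.

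These genes lay mostly in the middle of the arm, where 22 of 43 tested genes (51.2%) met the rule, against 7 of 129 (5.43%) at the 2 ends. By family they were 16 of 93 clone-named genes, 6 of 17 znf genes, 7 of 22 genes without a symbol and 0 of 40 genes with another symbol. In 8 of the 29 some fish had 0 counts, and 9 overlap another gene on the same strand. In 23 of them the low fish belonged to more than 1 genotype, and in the other 6 only a single fish was low. In none were all fish of a genotype low. None of the 29 passed FDR under 0.05 in a comparison with WT by edgeR's quasi-likelihood test. For mutant against WT, 0 had an unadjusted p under 0.05 by that test. Over all genes 34.1% and 44.9% passed these thresholds for mutant against WT. The 29 were picked for a wide range among the fish, which makes a call unlikely, so these counts cannot decide whether genotype plays a part.

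The same fish were low again and again. Hom fish 82 was low for 17 of the 29 genes and WT fish 86 for 16, while Het fish 80, 84 and 89, Hom fish 85 and WT fish 95 were each low for 2. The 29 genes showed 13 sets of low fish, 7 of them shared by several genes. Hom fish 82 with WT fish 86 formed the set of 8 genes, spread over 42.2 Mb, and the same fish with WT fish 88 the set of 4. Of the 28 pairs of neighbours among the 29 genes, 21 had at least 1 low fish in common, and 5 had the same set. Pairs that are not neighbours were not counted. With Hom fish 82 and WT fish 86 low so often, the 21 does not show that low fish go with position. znf1021 and znf1142, which overlap on the same strand, are among the 21 pairs and are not independent.

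Other sets took other fish. In si:dkey-159n16.2 (ENSDARG00000114577, chr4:49550966-49582758) the counts were 215, 9, 106 and 222 in Het fish, 197, 422, 8 and 3 in Hom fish, and 5, 873, 247 and 311 in WT fish. The low fish were Het fish 81, Hom fish 83 and 85 and WT fish 79. In si:dkey-156k2.1, 0.709 Mb further along, the same 4 fish had 1 to 3 counts while the other 8 had 43 to 200. Here Hom fish 82 and WT fish 86, low in the first group of genes, were among the highest. For si:dkey-237g15.2 and 2 genes within 0.646 Mb after it, si:dkey-264f17.1 and si:ch211-209j12.3, Hom fish 83 and WT fish 79 were low; the first of these had 108, 133, 65 and 126 counts in Het fish, 85, 201, 1 and 125 counts in Hom fish, and 2, 272, 94 and 136 counts in WT fish.

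In 2 genes more than 6 fish were low. ENSDARG00000098721 had 1, 30, 0 and 2 counts in Het fish, 0, 0, 44 and 30 counts in Hom fish, and 29, 0, 27 and 3 counts in WT fish. At 7.00 Mb from it, si:cabz01069016.2 had 0, 27, 0 and 0 counts in Het fish, 0, 0, 30 and 20 counts in Hom fish, and 35, 0, 35 and 0 counts in WT fish. The same 5 fish carried nearly all counts of both genes, namely Het fish 81, Hom fish 83 and 85 and WT fish 79 and 88. On library totals, a count of 0 in a fish means at most 0.176 to 0.253 CPM at these depths, which is not the scale of the levels printed for single genes.

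**Figure D5:**
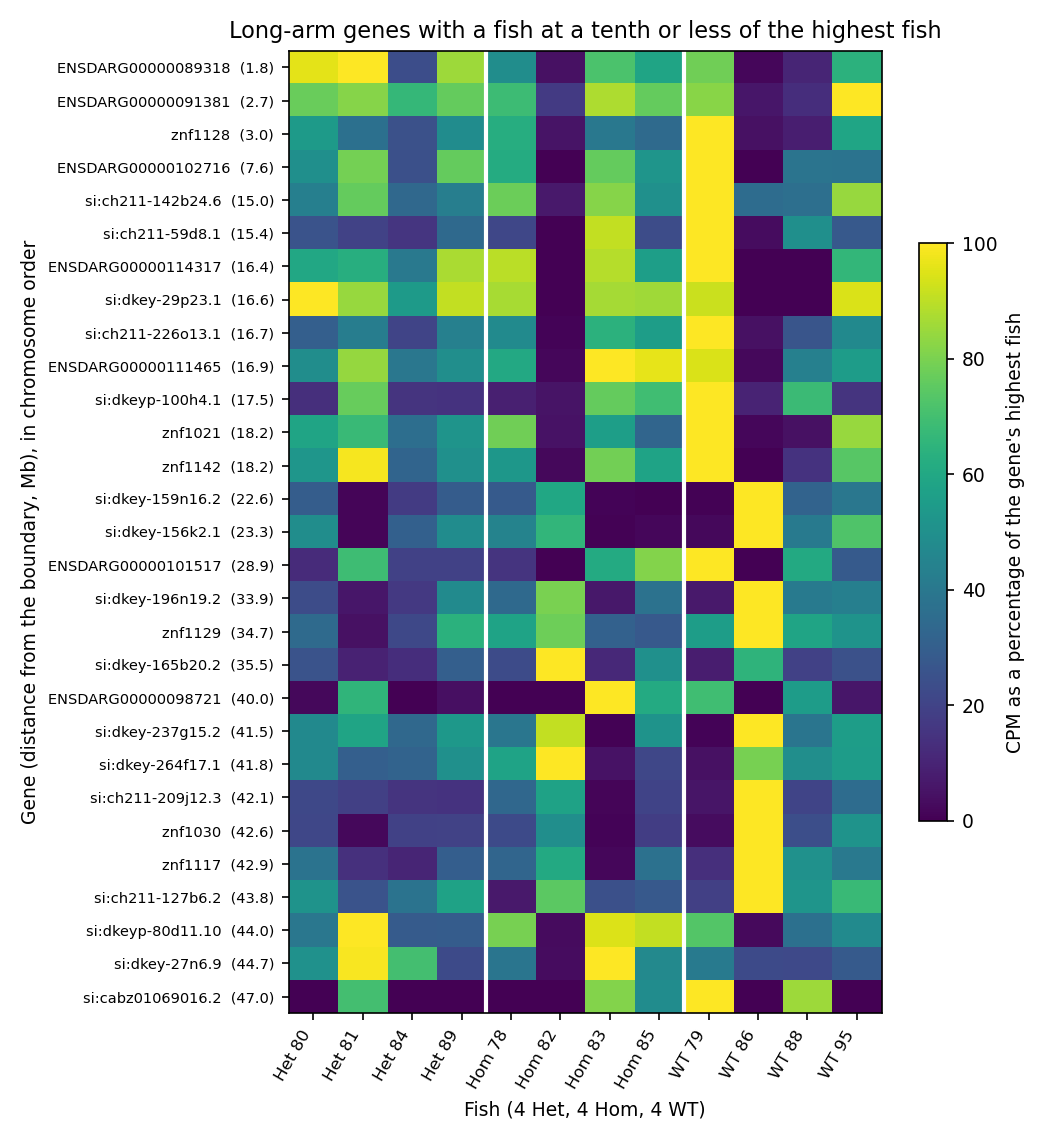
The 29 tested long-arm genes whose lowest fish had at most 10% of the highest, in chromosome order with the distance from the boundary (Mb), in 4 Het, 4 Hom and 4 WT fish. Colour gives CPM as a percentage of the gene's highest fish; dark cells recur in Hom fish 82 and WT fish 86 in the upper part and in Het fish 81, Hom fish 83 and WT fish 79 lower down, across the genotypes.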

How the data were processed

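RNA-seq counts of 12 whole brains were used. The labels' extraction text speaks of larvae, while the tissue labels and the paper name adult brains. The authors depleted rRNA with mammalian sequences, trimmed with cutadapt 1.14, aligned to GRCz11 with STAR 2.7.0d and counted with featureCounts (Subread 1.5.2) against Ensembl release 98. Counting was reverse stranded, required the whole fragment to fall in exons and dropped mapping qualities below 10. The deposited counts are raw whole numbers. The deposited exonic length of each gene, of the unit other, gave levels per kilobase. The GC and length correction of the authors was not applied, because GC content was not at hand.

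The members and gene lists were chosen with earlier results of these data known. Genes with CPM above 1.5 in at least 4 fish were kept and 2 mitochondrial rRNA genes left out, which gave 16021 genes. edgeR 4.0.16 under R 4.3.3 was used for TMM scaling and for its quasi-likelihood test, in 1 model of the 3 genotypes over all 12 fish, with Benjamini-Hochberg and Bonferroni adjustment over all genes. The standard error printed for a logFC is the size of the logFC divided by the square root of the F statistic of that test. DESeq2 1.42.0 was an alternative. Printed CPM in single fish and group means are TMM-scaled, over the total counts of the 16021 genes tested, which leave out mitochondrial rRNA. The detection rule, the floor and the marker sums used unscaled CPM on library totals, so the 2 scales differ. Log2 CPM for spreads used a prior count of 2. Genes were named if DE in any comparison with WT, if among the 6 highest per kilobase, the 20 highest with a symbol or the 6 most variable within genotypes, or if next to the boundary. Those at FDR under 0.05 were added after their values had been seen.

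The table pairs no symbols with its Ensembl identifiers. Symbols came from a table of Ensembl gene names, which matched 1410 of the 1653 long-arm genes and 150 of the 172 tested. For si:ch73-266f23.1, znf1185, si:ch73-120g24.5 and ENSDARG00000090942 the paper's supplement uses other names. Of the 172 tested genes, 49 overlap another gene on the same strand. No sequences are shown. Fish are separate animals, and nothing in the labels gives a batch.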

Additional observations from a re-analysis of the deposited data

Results flagged for a closer look

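Among 27 measures examined in each genotype (81 groups of 4 fish), 11 had a fish whose gap to its nearest sibling, as a share of the whole range of the group, exceeded Dixon's 95% critical value. For unrelated measures picked without regard to spread, chance gives about 1 in 20 such groups. Some of these measures were genes named for their spread within genotypes, and others draw on the same counts. The 11 of 81 therefore cannot be set against that rate.

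Het fish 84 was flagged for 3 measures. PSMB10 reached 17.9 CPM in it, where the other Het fish had 8.19 to 9.56 CPM. It had a count for 566 long-arm genes, where the others had one for 638 to 641. Its long-arm counts were 8.15% of those on the rest of chromosome 4, where the others had 9.99 to 10.1%. Among WT fish the same ratio was 10.15% in fish 95 and 9.69 to 9.74% in the others. Hom fish 85 had 149 long-arm genes above 1.5 CPM, where the other Hom fish had 156 to 157.

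Of single genes, TAFA5 was at 32.7 CPM in Hom fish 83, where the other Hom fish had 38.0 to 39.1 CPM, and BRD1 was at 98.4 CPM in WT fish 86, where the other WT fish had 68.1 to 72.3 CPM. In Hom fish 82, si:dkey-29p23.1 was at 0 CPM and si:dkey-238k10.3 at 7.54 CPM, where the other Hom fish had 20.1 to 20.3 CPM and 1.74 to 2.08 CPM. In Het fish 81, ENSDARG00000098721 was at 2.78 CPM, where the other Het fish had 0 to 0.178 CPM, and si:cabz01069016.2 was at 2.502 CPM, where the others were at 0.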

How the results depend on the processing

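No paired analysis was possible because each fish number occurs in 1 genotype only. The count of DE long-arm genes for mutant against WT, 0 as reported, was 1 with upper-quartile scaling and with a minimum of 10 counts in every fish (ms4a17a.11 in both), 2 without a filter on low counts (ms4a17a.11 and znf1047), and 27 at FDR under 0.05. Over all genes the main fit gave 406 DE, and these settings gave 401, 389, 433 and 5467. The long-arm count ran between 0 and 2 with a fish left out: 2 without Hom fish 82 and WT fish 95, and 1 without Het fish 81 and 89, Hom fish 78 and WT fish 88. Over all genes the fits with a fish left out gave 161 (without WT fish 86) to 680 (without WT fish 88). For Het against WT, 2 as reported, it was 4 with DESeq2 and with the likelihood-ratio test, 1 with the length correction, 0 with the mitochondrial rRNA share as a covariate, 22 at FDR under 0.05, and between 0 (without WT fish 79) and 3 (without WT fish 95) with a fish left out. Without Het fish 84 it was 1, against 370 over all genes. Over all genes the main fit gave 508 DE for Het against WT. There DESeq2 gave 981, the likelihood-ratio test 870 and the length correction 416. Leaving out WT fish 79 gave 137 over all genes, and leaving out WT fish 95 gave 512. For Hom against WT, 0 as reported, the long-arm count was 9 at FDR under 0.05 and 0 to 1 with a fish left out, the 1 being PHF21B without WT fish 88. Over all genes the main fit gave 178 DE there. The fits with a fish left out gave 11 (without Hom fish 85) to 424 (without WT fish 88). For Hom against Het it was 0 throughout. The count of 27 at FDR under 0.05 for mutant against WT was 0 with the covariate and 11 to 26 with a fish left out, lowest without WT fish 86 and 79. Over all genes the count of 5467 was 3385 without WT fish 86 and 3530 without WT fish 79. The cause was not tested.

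With the mitochondrial rRNA share as a covariate, the 57 calls at FDR under 0.05 that were followed through the alternatives were lost, and 0 genes of the whole table were DE. Since this share did not overlap between mutant and WT fish, the covariate and the genotype cannot be told apart. The logFC changed sign for mutant against WT in trim24 (0.035), slco1d1 (-0.35), si:dkey-51d8.6 (0.13), PHF21B (0.29) and terfa (0.15), for Het against WT in trim24 (0.076), slco1d1 (-0.29) and PHF21B (0.31), and for Hom against WT in PHF21B (0.28). With a fish left out, these 57 kept the call at FDR under 0.05 in 528 fits and lost it in 156.

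The number of detected genes, 172, was 310 at CPM above 0.5 and 77 above 5. These were 18.75% and 4.66% of long-arm genes, against 64.8% and 44.4% on the rest of chromosome 4. With any count the number was 922 (55.8%, against 85.6%). Without mitochondrial counts it was 230 (13.9%, against 58.6%), and with a fish left out 166 to 171. The mutant minus WT difference in the long arm's share of counts, -0.0360 percentage points, was -0.0199 without mitochondrial counts and between -0.0415 and -0.0320 with a fish left out.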
